A study of Mus musculus with 12 samples.

Results

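The SLC25 genes, which encode the mitochondrial solute carriers, were examined in liver ribosome profiling of wild-type and Mettl5-deficient mice. The rule took genes whose symbol begins with Slc25a, apart from a pair that it left out. Of the 47 genes so named in the count file, 34 were present among the 10607 genes of the normalised table and are described here. Another 11 were absent from that table, and the pair is not analysed here. METTL5 places N6-methyladenosine on 18S rRNA, and the design asked whether its loss alters transcript abundance or translation in liver. The mice were 3 wild-type (WT) and 3 knockout (KO) animals, with 1 mouse of each genotype from each of 3 litters. KO mice had lost floxed exon 2 of Mettl5 in the whole body through CMV-driven Cre, so the deletion was not limited to hepatocytes. Both groups came from a line made in C57bl/6 x 129S6 hybrid ES cells and backcrossed to B6, and all livers were snap-frozen and lysed in cycloheximide, which holds ribosomes on transcripts. RNA of each liver lysate was sequenced as input, a measure of how much transcript was present, and after nuclease digestion as ribosome-protected fragments (RPF), the pieces of mRNA that ribosomes covered. A gene's RPF level divided by its input level is its translation efficiency (TE). Ages and sexes were not used, and bulk liver cannot tell fewer cells of a type from less RNA per cell.

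Carriers of the SLC25 family sit, with few exceptions, in the inner mitochondrial membrane, which is otherwise closed to most metabolites. They are encoded in the nucleus, made on cytosolic ribosomes and inserted into the membrane after translation. In liver they link the cytosol with oxidative phosphorylation, the urea cycle, gluconeogenesis, fatty acid oxidation and fatty acid synthesis.

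Counted read pairs per input library ranged from 8326325 to 11825643. The genes of the normalised table held 2398804 to 5121304 reads in input and 4623826 to 9184242 in RPF. Mettl5 itself had 12 to 21 input reads in WT and 5 to 13 in KO, and 56 to 103 RPF reads in WT against 9 to 12 in KO. Its RPF difference was −2.64 on the log2 scale (SE 0.36, limma, adjusted p = 0.00504), and its input difference was −1.59 (SE 0.46, edgeR, adjusted p = 0.999). Hepatocyte markers (Alb, Ttr, Apoa1, Cps1 and Serpina1a) summed to 18859 to 26487 CPM in WT input and 19849 to 21664 in KO. The summed level of 5 stellate cell markers was 67.7 to 78.1 CPM in WT and 88.0 to 94.5 in KO. The ranges of the summed erythroid, macrophage, endothelial, cholangiocyte and lymphocyte markers overlapped between genotypes, and no marker was at 0 in all input libraries.

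The 11 carriers absent from the table had few reads. Slc25a18 and Slc25a54 had 0 counts in all 6 input libraries, and the highest count among the other 9 was 13, for Slc25a36 in a KO liver. Among the 34 carriers with values, Slc25a14, Slc25a24 and Slc25a34 fell under the minimum mean of 10 normalised reads and were not tested. Slc25a24, an ATP-Mg/phosphate carrier, had input values of 7.34, 6.27 and 6.56 in WT and 11.8, 6.65 and 8.0 in KO. The other 31 were tested in every comparison.

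Without a litter term, no carrier differed between genotypes past an adjusted p of 0.05. With litter as a block, which pairs the mice, Slc25a47 alone of 31 passed, in RPF (0.55 on the log2 scale, SE 0.13, limma, adjusted p = 0.0335), beside 0.967% of all genes higher and 1.66% lower in KO under that fit. Without the block, the values were as follows. In input, 0 of 31 carriers passed in either direction by edgeR, beside 0.0% of 10057 genes higher and 0.0% lower in KO. In RPF, 0 of 31 passed by limma, beside 0.167% of 8994 genes higher and 0.322% lower, with a lowest adjusted p among carriers of 0.282. In TE, 0 of 31 passed by limma, beside 0.0% higher and 0.0% lower. At an unadjusted p under 0.05 the carriers numbered 0 in input, 3 in RPF and 0 in TE, where the whole table gave 348, 1205 and 423 genes, or 3.46%, 13.4% and 4.7%. The 3 carriers in RPF, Slc25a20, Slc25a3 and Slc25a16, were all lower in KO, beside 7.99% of all genes in that direction. This TE fit did not pair the input and RPF of a mouse. With blocks of mouse and litter (limma), no carrier passed in TE. Unadjusted p was then 0.0125 for Slc25a47 (0.37, SE 0.13, adjusted p = 0.366) and 0.0466 for Slc25a39 (0.47, SE 0.21, adjusted p = 0.493). It was 0.0327 for Slc25a3 (−0.32, SE 0.14, adjusted p = 0.437).

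Carriers as a group moved little. The median log2 difference between KO and WT over the 31 carriers was 0.066 in input, 0.15 in RPF and 0.047 in TE, beside medians of all genes tested of −0.00037, −0.033 and −0.011. The 30 tested carriers reported by name ranged from −0.60 to 0.59 in input, from −0.46 to 0.66 in RPF and from −0.49 to 0.62 in TE. The median standard error of a carrier was 0.22 in input, 0.24 in RPF and 0.34 in TE. By litter, the carriers' median RPF difference was 0.042, 0.056 and 0.12, and their median input difference was 0.20, 0.14 and −0.14. The carriers' RPF median was 0.057 after a trend with coding GC content was removed from each library and −0.046 without the WT mouse of litter 1. When each mouse was left out in turn, the medians ran from −0.017 (without the KO mouse of litter 2) to 0.10 in input and from −0.047 (without the WT mouse of litter 1) to 0.12 in TE, so none of the 3 medians kept its sign throughout. Of 33 single-carrier differences between genotypes recomputed in this way, 27 moved by over 1.5 times when at least 1 mouse was left out, and 7 of these changed sign. The other 6 were those of Slc25a3 in RPF and TE, of Slc25a13, Slc25a16 and Slc25a20 in RPF, and of Slc25a23 in input.

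**Figure D1:**
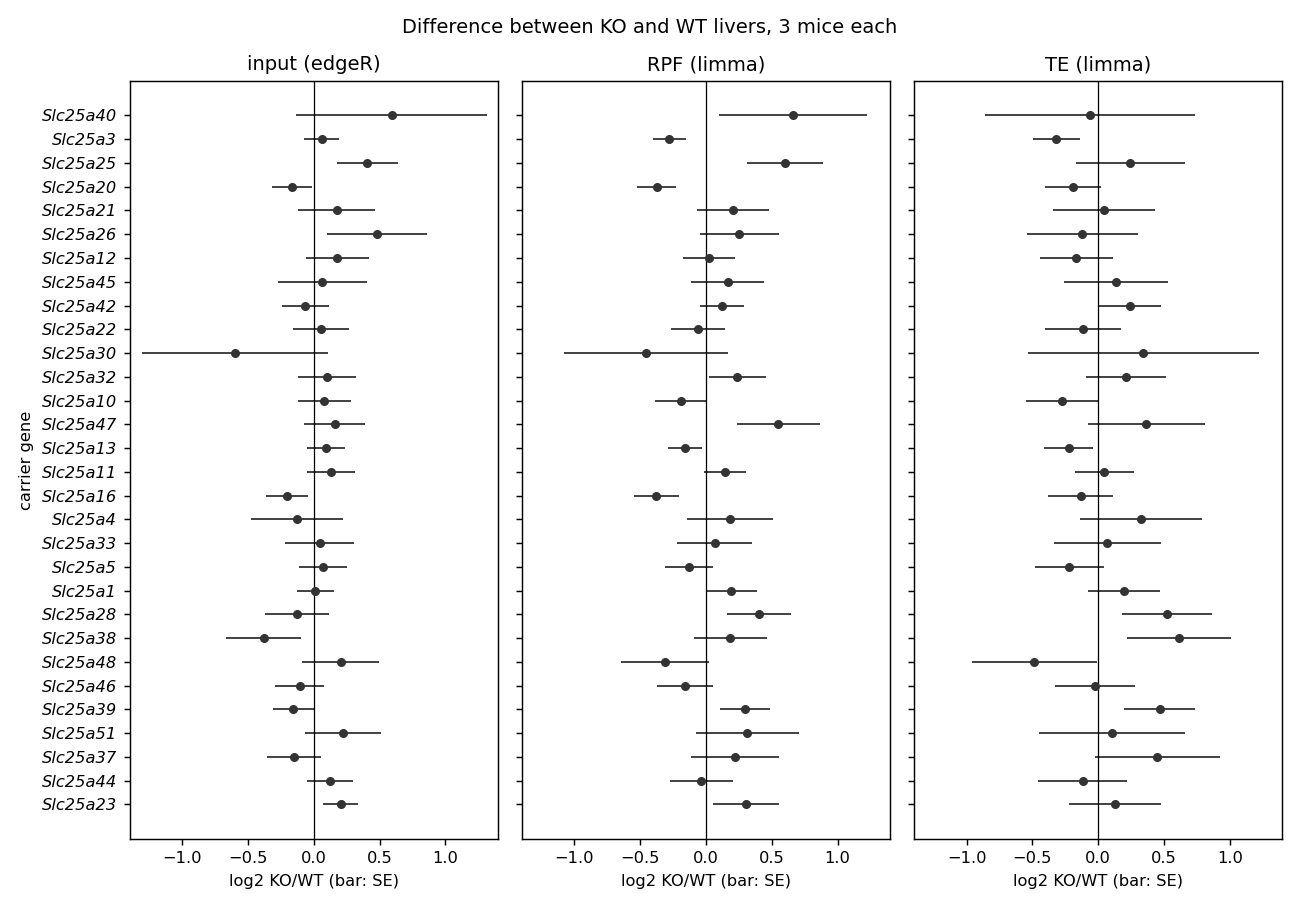
Log2 difference between KO and WT for 30 tested carriers in input, RPF and TE, with standard errors (3 mice per genotype). Genes are ordered by TE in WT, and the points lie between −0.60 and 0.66, with the widest bars for Slc25a30 and Slc25a40.

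Translation efficiency within WT liver differed more among carriers than between genotypes, as it also did over all genes. TE was corrected for length (RPF per coding length over input per exon length) and is given on the log2 scale relative to the median gene in the same mouse. By limma over 8973 genes with a coding sequence, 14 of 31 carriers lay above the median gene and 13 below it at an adjusted p under 0.05, beside 34.9% of all genes above and 33.1% below. The TE difference between genotypes had a standard deviation of 0.28 across carriers, beside 0.38 over all genes. The WT TE of the carriers had a standard deviation of 1.10, beside 1.26 over all genes, and a median of 0.27 between WT mice of the same carrier. The highest and lowest carriers, Slc25a40 and Slc25a23, differed 15.3-fold.

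The order of the carriers was close in KO liver, with a Spearman coefficient of 0.95 between WT and KO means over 31 carriers that share the same length correction and annotation. The sign was the same in both genotypes for 30 of 31 carriers, beside 90.1% of all genes, and 22 passed with the same sign in both, beside 57.2%. Neighbours in the order mostly lay within each other's spread between mice, as Slc25a40 (1.72 ± 0.91, SD, n = 3) and Slc25a3 (1.65 ± 0.10) did.

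**Figure D2:**
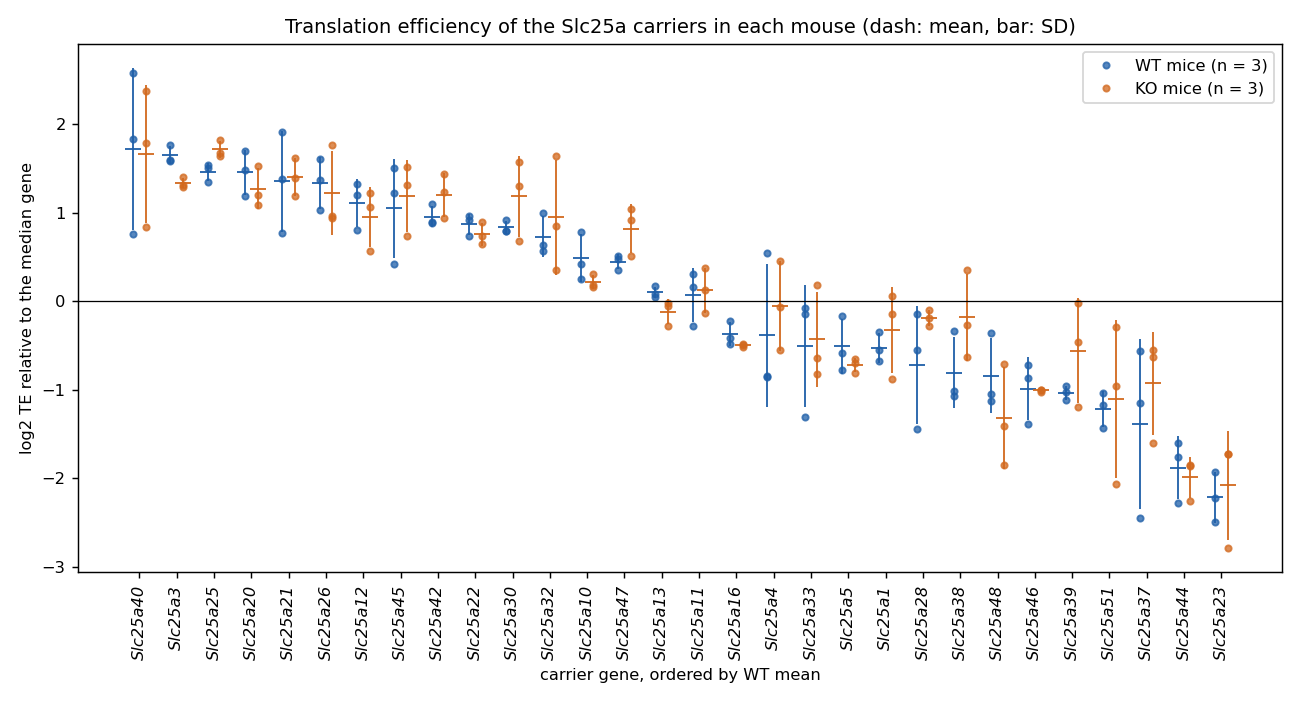
Log2 TE of 30 tested carriers relative to the median gene of the same mouse, with WT and KO mice as points, dashes for means and bars for SD (n = 3 each). Carriers run from Slc25a40 (WT mean 1.72) to Slc25a23 (WT mean −2.22), and WT and KO points lie close together for most genes.

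The length used for input affected both ends of this order. Annotated exons of Slc25a3 together span 5550 bases, whereas its transcript with the longest coding sequence has 1341. With that transcript's length, the TE of Slc25a3 fell from 1.65 to 0.19 (limma, adjusted p = 0.0759) and that of Slc25a40 from 1.72 to 0.72 (adjusted p = 0.206). Slc25a40, with few reads, also lost its call without the WT mouse of litter 3 (1.29, limma, adjusted p = 0.0575). Slc25a25 and Slc25a20 stayed above the median gene, at 0.80 and 0.61. The 4 lowest stayed below the median gene: Slc25a23 had −2.28, Slc25a44 −1.29, Slc25a37 −1.32 and Slc25a51 −0.94. Slc25a28 fell from −0.71 to −1.41 and was then the second lowest, and Slc25a51 left the lowest 4. Slc25a12 was then the highest, at 1.5. Slc25a3, Slc25a16, Slc25a37, Slc25a39, Slc25a47 and Slc25a51 also hold small or predicted genes on their own strand in the annotation, and how reads were divided there is uncertain.

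The sequence around the start codon, where ribosomes begin translation, is shown for the 4 highest and the 4 lowest carriers by exon length. With transcript length, none of these 4 highest was among the first 4, and Slc25a51 was not among the last 4. Each run has 9 bases of leader, the ATG in capitals and 4 further coding bases, 5′ to 3′, from the transcript with the longest coding sequence in the GENCODE annotation of mm10.
Slc25a40: ttaaaaagtATGgagc
Slc25a3: cttaggaggATGttct
Slc25a25: tcgcgcccgATGgtga
Slc25a20: agactgagcATGgcag
Slc25a23: gcgggcgccATGcggg
Slc25a44: acgaggggtATGcccg
Slc25a37: gggccgcggATGgagc
Slc25a51: caggctcagATGtcac

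These lie at chr5:8427408-8427423 (plus strand), across an exon junction of Slc25a3 on chromosome 10 (minus strand), at chr2:32451318-32451333 (minus), chr9:108662219-108662234 (plus), chr17:57059667-57059682 (minus), chr3:88424765-88424780 (minus), chr14:69284935-69284950 (minus) and chr4:45404729-45404744 (minus), in the order printed. The letters ANNATGG or GNNATGG, read on the coding strand at the start codon only, were present in Slc25a40 and Slc25a20 and in none of the 4 lowest by exon length. Across all carriers they were present in 15 of 31, or 48.4%, beside 46.4% of 8735 genes. The median TE of carriers with these letters was 0.068, and of those without, 0.039. At least 1 further ATG stood in the annotated leader of 18 of 31 carriers (58.1%, beside 49.5% of genes). Carriers with such an ATG had a median TE of −0.38 and those without it 0.45, where all genes gave −0.22 and 0.21. Slc25a44 had 4 of them, and Slc25a23, the lowest, had 0.

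Carriers of phosphate and adenine nucleotides supply oxidative phosphorylation or set the nucleotide pool of the matrix. Slc25a3, the phosphate carrier, had RPF values of 1179.7, 1249.9 and 1152 normalised reads in WT and 902, 1070.2 and 987 in KO. All 3 KO mice were below all WT mice. Its input was 567, 691 and 636 in WT against 605, 677 and 662 in KO, which overlapped. The RPF difference was −0.28 (SE 0.13, limma, adjusted p = 0.356) and the TE difference −0.32 (SE 0.18, adjusted p = 0.998), the smallest unadjusted p of any carrier in TE without blocks.

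Slc25a25, a calcium-regulated ATP-Mg/phosphate carrier, had the smallest p of any carrier in input. Its input values were 1007, 906 and 1347 in WT and 1842, 1035 and 1353 in KO, and its RPF values 1809, 1402 and 2331 in WT and 4014, 1957 and 2626 in KO. KO exceeded WT in each of the 3 litters in both assays, though by only 0.0066 on the log2 scale in input of litter 3. The share of all genes with the same direction in each litter is not given here. The groups overlapped, with the KO mouse of litter 1 far above the others. The log2 differences were 0.41 in input (SE 0.23, edgeR, adjusted p = 0.999) and 0.60 in RPF (SE 0.29, limma, adjusted p = 0.407), and without that KO mouse they were 0.15 and 0.33.

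Slc25a23, a paralog of Slc25a25 with the same kind of substrate, had a similar WT input, 162 ± 5.2 against 138 ± 29.4 normalised reads per kb of exon (SD, n = 3), but few RPF reads, 109 ± 19 against 1196 ± 302 per kb of coding sequence. Per kb of transcript, mean WT input was 255 for Slc25a23 and 330 for Slc25a25. The input values of Slc25a23 were 888, 851 and 834 in WT and 912, 1047 and 955 in KO, so that all KO mice lay above all WT mice. Of the 31 tested carriers it was the only 1 with input so separated, beside 3.65% of all genes, and 0 were separated downward, beside 5.6%. The input difference was 0.20 (SE 0.13, edgeR, adjusted p = 0.999). RPF was 131, 183 and 146 in WT and 108, 258 and 236 in KO, where the KO mouse of litter 1 was the lowest of the 6. The RPF difference was 0.31 (SE 0.25, limma, adjusted p = 0.639). It was 0.70 without that mouse (limma, adjusted p = 0.0300), but 0.078 without the KO mouse of litter 2 (adjusted p = 0.934), 0.14 without that of litter 3 (adjusted p = 0.943) and 0.20 without the WT mouse of litter 1 (adjusted p = 0.859).

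The TE of Slc25a25 exceeded that of Slc25a23 by 3.68 ± 0.38 on the log2 scale in WT (SD, n = 3) and by 3.80 ± 0.71 in KO, and by 3.08 in WT with transcript lengths. Slc25a23 overlaps Crb3, and Slc25a25 overlaps Naif1, both annotated on the opposite strand. Input was counted by strand, whereas strand use is not given in the sources used here for RPF.

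Slc25a16, which is linked to coenzyme A transport, was lower in KO in every litter in both assays. RPF was 112, 124 and 90.8 in WT and 92.4, 87.3 and 70.7 in KO, with an overlap between the lowest WT and the highest KO mouse. The RPF difference was −0.38 (SE 0.17, limma, adjusted p = 0.356), and the input difference −0.20 (SE 0.16). Slc25a42, the other coenzyme A carrier, had 0.12 in RPF (SE 0.17). The ADP/ATP carriers Slc25a4, the heart and muscle form, and Slc25a5 had mean WT inputs of 11.3 ± 3.34 and 147 ± 42 normalised reads per kb of exon (SD, n = 3), and RPF differences of 0.18 (SE 0.33) and −0.13 (SE 0.18). Reads of Slc25a5 may be reduced by an annotated pseudogene, since reads mapping to several places were dropped, but this was not tested.

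Carriers of carnitine and glutathione included the carrier with the smallest RPF p without the block of litter. Slc25a20, the carnitine/acylcarnitine carrier that admits fatty acids to the matrix for oxidation, had RPF values of 711, 674 and 697 in WT and 585, 575 and 457 in KO. All KO mice were below all WT mice, and KO was lower in each litter. Its input was 372, 509 and 430.1 in WT and 347, 432 and 374 in KO, lower in KO in each litter but overlapping. The RPF difference was −0.37 (SE 0.15, limma, adjusted p = 0.282), the input difference −0.16 (SE 0.15) and the TE difference −0.19 (SE 0.21). When each mouse was left out, the last of these ran from −0.33 to −0.065 and the input difference from −0.27 to −0.044.

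Slc25a39 and Slc25a40 both encode mitochondrial glutathione carriers and differed in abundance and TE. Slc25a39 was among the most abundant carriers in WT input, at 297 ± 50.4 normalised reads per kb of exon, whereas Slc25a40 had 1.36 ± 1.25 and only 3 to 21 input reads per library. Slc25a39 had input values of 662, 869.9 and 926 in WT and 797, 706 and 662 in KO, and RPF values of 421, 517 and 517 in WT and 426, 618 and 787 in KO. Its RPF was higher in KO in each litter, though by only 0.018 on the log2 scale in litter 1. The groups overlapped, and the TE difference was 0.47 (SE 0.27, limma, adjusted p = 0.998). Without the KO mouse of litter 1 it was 0.78, and without that of litter 3, 0.20. The TE of Slc25a40 exceeded that of Slc25a39 by 2.76 ± 0.95 in WT and 2.23 ± 1.36 in KO, and by 1.87 in WT with transcript lengths.

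Di- and tricarboxylate and oxoacid carriers move intermediates of the citric acid cycle. Slc25a1, the citrate carrier that exports acetyl units for fatty acid synthesis, was the third most abundant by exon length, at 233 ± 33.1 normalised reads per kb in WT input. Per kb of transcript, Slc25a3 (471) and Slc25a25 (330) also lay above Slc25a1 (302). The input of Slc25a1 was 422, 556 and 532 in WT and 513, 505 and 479.7 in KO, and its RPF 392, 585 and 445 in WT and 378, 609 and 664 in KO. Both overlapped, and the RPF difference was 0.19 (SE 0.19), which was 0.44 without the KO mouse of litter 1 and 0.037 without that of litter 3. The 2-oxoglutarate carrier Slc25a11 had RPF values of 219, 184 and 209 in WT and 225, 223 and 228 in KO. It was the only 1 of 31 carriers with all KO mice above all WT mice in RPF, beside 6.97% of all genes, though its difference was 0.15 (SE 0.16, limma, adjusted p = 0.738). The dicarboxylate carrier Slc25a10 had −0.19 (SE 0.20) and the oxodicarboxylate carrier Slc25a21 0.21 (SE 0.27) in RPF.

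Amino acid carriers included Slc25a13 (citrin), the aspartate/glutamate carrier that serves the urea cycle and the malate-aspartate shuttle in liver. Its RPF was 1177, 1345 and 1249 in WT and 1160.1, 1148 and 1067 in KO, without overlap. Separation of this kind, with KO below WT in RPF, was seen in 3 of 31 carriers (Slc25a3, Slc25a20 and Slc25a13), beside 12.9% of all genes. Its input was 659, 784 and 670.0 in WT and 701, 843 and 673 in KO, so KO was higher in each litter there. In litter 3 it was higher by only 0.0068 on the log2 scale. The differences were −0.16 in RPF (SE 0.13, limma, adjusted p = 0.640) and 0.094 in input (SE 0.14). Slc25a12 (aralar), its paralog in brain and muscle, had a WT input of 10.0 ± 2.48 normalised reads per kb of exon against 185 ± 18.2 for Slc25a13, and a TE higher by 1.01 ± 0.33 in WT and 1.07 ± 0.39 in KO.

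Slc25a38, the glycine carrier that feeds heme synthesis, had the highest TE difference of any carrier, 0.62 (SE 0.40, limma, adjusted p = 0.998), which was 0.35 without the KO mouse of litter 3. Its input was 56.9, 75.2 and 43.3 in WT and 42.8, 57.2 and 30.4 in KO, lower in KO in each litter and overlapping. RPF was 31.4, 39.2 and 37.7 in WT and 30.6, 52.3 and 43 in KO. Slc25a44, a carrier of branched-chain amino acids, had the second lowest TE by exon length, −1.88 (SE 0.17, limma, adjusted p = 5.49e-10). Its WT values were 205, 199 and 214 in input and 36.6, 50.3 and 60.3 in RPF. Its KO values, 186, 282 and 197 in input and 33.4, 67.0 and 45.9 in RPF, overlapped those of WT. The glutamate carrier Slc25a22 had a TE of 0.87 (SE 0.11).

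Carriers of vitamins, cofactors and pyrimidine nucleotides spread widely in TE, from −1.22 for Slc25a51 to 1.33 for Slc25a26 (0.61 with transcript length, limma, adjusted p = 0.116). Slc25a51, which imports NAD+, had input values of 105, 177 and 206 in WT and 190.1, 242 and 129.5 in KO, and RPF values of 24.4, 45.2 and 39.7 in WT and 23.6, 65.2 and 55.4 in KO. Both overlapped, and its RPF difference was 0.31 (SE 0.39), which was 0.75 without the KO mouse of litter 1 and 0.039 without that of litter 2. The S-adenosylmethionine carrier Slc25a26, which brings the methyl donor into the matrix, had an RPF difference of 0.25 (SE 0.30). The folate carrier Slc25a32 had 0.24 (SE 0.22) and the pyrimidine nucleotide carrier Slc25a33 0.066 (SE 0.29).

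The iron carriers mitoferrin 1 (Slc25a37), known from erythroid cells, and mitoferrin 2 (Slc25a28), expressed broadly, both had TE below the median gene in WT. Slc25a28 had −0.71 in WT (SE 0.25, limma, adjusted p = 0.0146) and −0.19 in KO (SE 0.22, limma, adjusted p = 0.480). Slc25a37 had a TE of −1.39 in WT (SE 0.29, limma, adjusted p = 0.000573), and its WT mice spread widely at −2.44, −0.56 and −1.15. Its RPF was 11.3, 41 and 24.2 in WT and 20.9, 32 and 27.7 in KO, with all KO mice inside the WT range. Slc25a28 had RPF values of 27.9, 41 and 42.3 in WT and 41, 49.2 and 56.4 in KO, higher in KO in each litter but overlapping (0.40, SE 0.24, limma, adjusted p = 0.488, and 0.21 without the WT mouse of litter 1). Its TE exceeded that of Slc25a37 by 0.67 ± 0.29 in WT, and the difference was −0.089 with transcript lengths.

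Among carriers without an assigned substrate here, Slc25a47, known for its expression in liver, was the most abundant of the family in WT input, at 419 ± 149 normalised reads per kb of exon. Its input was 1022, 967 and 1765 in WT and 1201, 1318 and 1617 in KO. RPF was 1291, 1339 and 2368 in WT and 1674, 2395 and 3206 in KO. The WT mouse of litter 3 was above the KO mouse of litter 1, so the groups overlapped, whereas KO exceeded its WT littermate in each litter. The RPF difference was 0.55 (SE 0.31, limma, adjusted p = 0.479), and with litter as a block its SE was 0.13 and its adjusted p 0.0335. Without the block, leaving out the KO mouse of litter 3 gave 0.32 and leaving out the WT mouse of that litter gave 0.83. Slc25a47 had the highest coding GC content of the tested carriers, 60.3%, and with the GC trend removed the blocked difference was 0.34 (SE 0.13, limma, adjusted p = 0.282).

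The others of this set were Slc25a45, Slc25a46 and Slc25a48, with RPF differences of 0.17 (SE 0.28), −0.16 (SE 0.21) and −0.31 (SE 0.34). Slc25a46 lies in the outer membrane. Slc25a30, which resembles the uncoupling proteins, varied most between mice of the abundant carriers, with inputs of 269.6, 547 and 220.3 in WT and 379, 85.1 and 189 in KO and RPF values of 283, 562 and 247 in WT and 365, 151 and 275 in KO. The highest and the lowest mouse belonged to the same litter, and the input difference was −0.60 (SE 0.71). It was −1.33 without the KO mouse of litter 1, −0.22 without that of litter 2 and −0.10 without the WT mouse of litter 2.

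**Figure D3:**
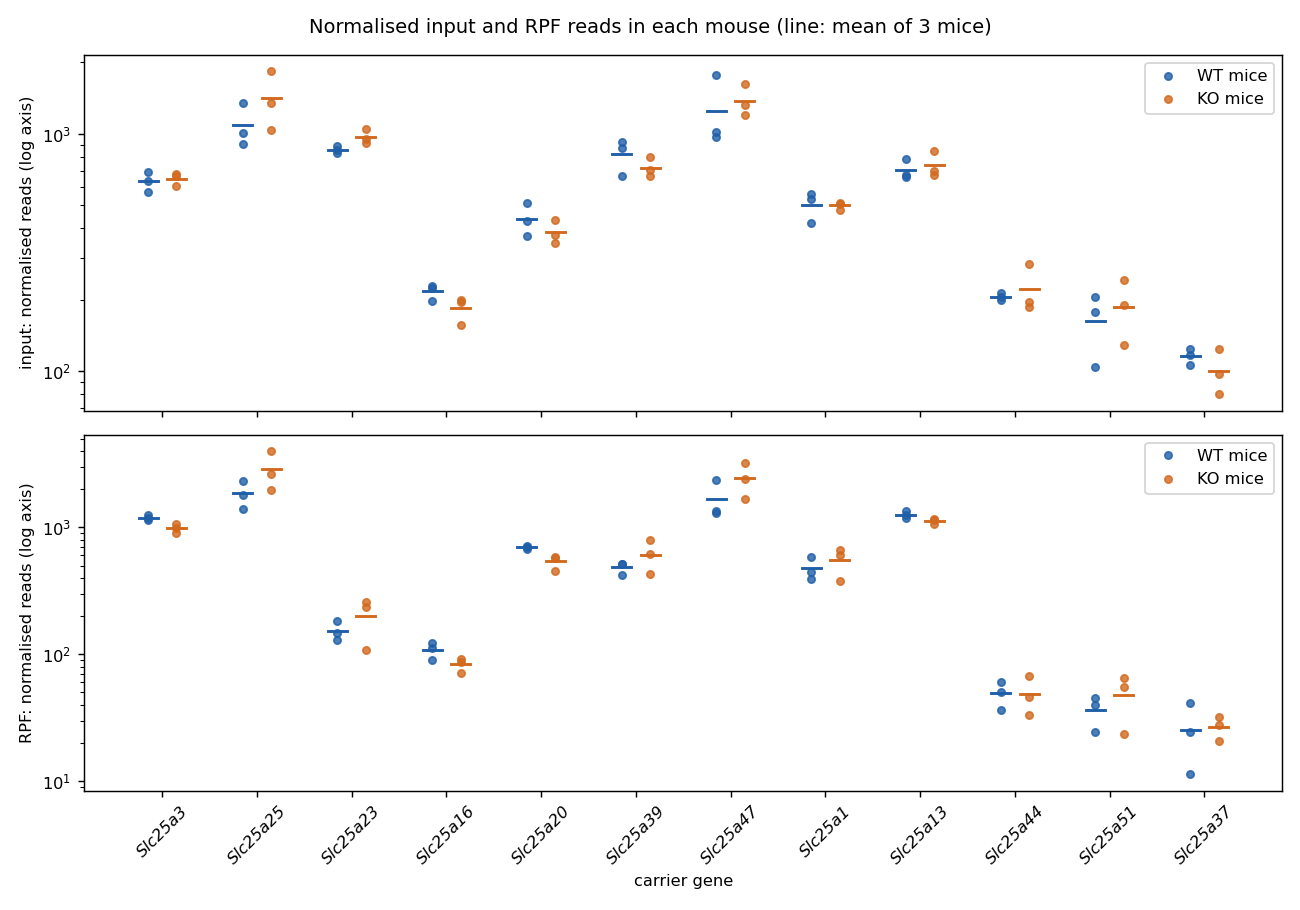
Normalised input (top) and RPF (bottom) reads of 12 carriers in each mouse, on log axes, with lines for means of 3 mice. KO points lie below all WT points in RPF for Slc25a3, Slc25a20 and Slc25a13, and Slc25a23 sits high in input and low in RPF in both genotypes.

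Coding GC content moved with the RPF difference across the whole table, with a Spearman coefficient of 0.46 over genes tested, which share the same 12 libraries. Among the 31 carriers it was 0.28. The carriers had a median coding GC content of 55.0%, against 52.5% over the genes with a start window, and ranged from 40.7% (Slc25a40) to 60.3%. Their coding sequences were shorter, with a median of 957 bases against 1437.

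**Figure D4:**
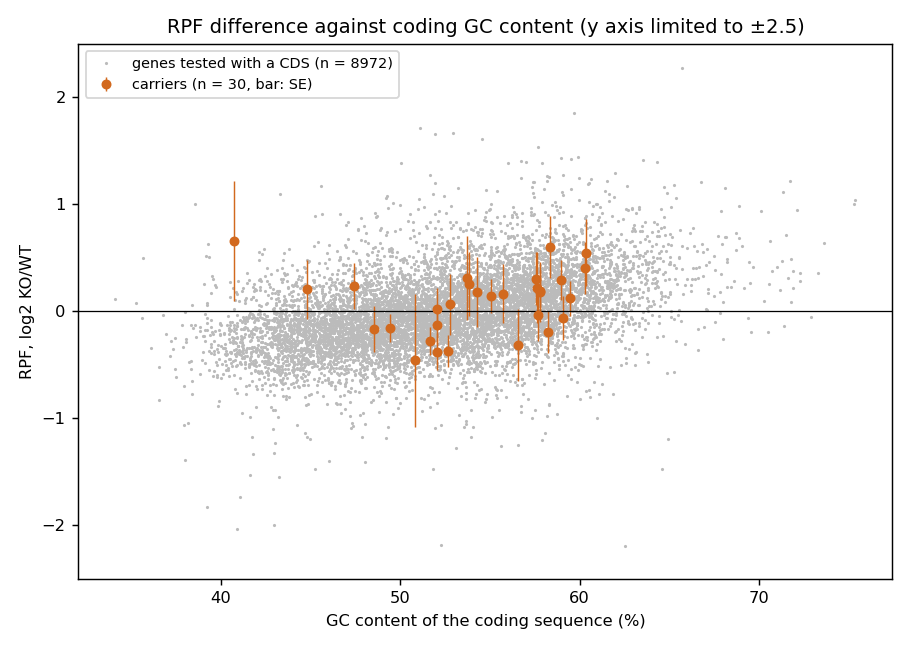
Log2 RPF difference between KO and WT against GC content of the coding sequence, for genes tested (grey) and 30 carriers (orange, bars are SE). Grey points drift upward with GC content, and carriers lie within their range.

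Other genes of mitochondrial transport gave no calls between genotypes, without or with the block of litter. Family members under other symbols (Ucp2, Mtch1 and Mtch2 of 5 listed genes were in the table), 14 tested genes of other inner-membrane transport, the 3 VDAC pores of the outer membrane and the tested genes of the carrier import machinery (12 in input, 11 in RPF and TE) had 0 members past an adjusted p of 0.05 in input (edgeR), RPF and TE (limma), and 0 of 32, 5 of 31 and 0 of 31 had an unadjusted p under 0.05, beside 3.46%, 13.4% and 4.7% of all genes. The 5, named after their values were seen, were Mtch1, higher in KO, and Mtch2, Vdac2, Vdac3 and Timm9, lower in KO. The median RPF difference was 0.46 for the family members under other symbols, 0.020 for other inner-membrane transport, −0.52 for the pores and −0.090 for the import machinery. Vdac2 had RPF values of 294, 264 and 341 in WT and 215, 215 and 196 in KO, lower in KO without overlap (−0.52, limma, adjusted p = 0.140). Vdac3, Timm9 and Mtch2 were separated in the same way, as were 12.9% of all genes. In WT baseline TE, 3 of 3 family members under other symbols and 3 of 3 pores lay above the median gene, as did 8 of 14 genes of other inner-membrane transport, with 4 below, and 3 of 11 import genes, with 0 below, beside 34.9% of all genes above and 33.1% below.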

How the data were processed

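Input and RPF libraries from 6 livers were grouped by the sample labels, which also give the litter. The authors trimmed reads with BBDuk, aligned input to mm10 with STAR 2.7.3a (submitters' processing notes), and counted uniquely mapped read pairs over exons by strand with featureCounts 1.6.0, which gave the deposited counts. The header of that count file names a later release of featureCounts. RPF reads mapping once were quantified with RiboToolkit. The deposited normalised table holds a signal per gene, reads divided by a single factor per library without gene length, although it is named RPKM. Divided by the factor inferred for each library, 100% of its values lay within 0.01 of a whole number of reads (0.001% of the value above 1000 reads). Its columns of log2 fold change, p-value and adjusted p-value for TE hold the authors' own comparison and were not used. How the table was filtered is not given in the sources used here.

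Input counts were tested with edgeR 4.0.16 (TMM, filterByExpr, robust quasi-likelihood) in R 4.3.3, the SE being the absolute log2 difference over the square root of F. For RPF and TE, limma 3.58.1 (trend, robust) was run on log2(value + 1), with 4 group means over 12 libraries and a minimum mean of 10 in both assays, a scale that understates differences of low genes. The input and RPF of a mouse were not paired in that fit. WT baseline TE was log2 RPF over input per mouse, with coding length for RPF (footprints being taken to lie in coding sequence) and exon length for input, centred on the median gene and tested against 0 with limma. Coding sequences came from GENCODE vM21. P-values are two-sided and Benjamini-Hochberg adjusted over all genes tested, and fits were tested on simulated data. Simulated libraries were independent, without correlation within a mouse or litter, and those for RPF and TE used a single dispersion for all genes. They therefore cannot show how the fits behave with paired mice. Alternatives included DESeq2 1.42.0, edgeR on the recovered reads (calling 66 genes in RPF), other filters, pseudocounts of 0.1 and 5, GC and length trends, blocks of litter or mouse, and leaving out each mouse. Added after the data were seen were limma for input, GC removal in the baseline and with blocks, and a shared litter term.

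The labels mark littermates, so the mice were paired. Deviations from group means correlated between littermates by 0.08 to 0.13 for input and 0.14 to 0.24 for RPF. The fit without the block is given first, because no litter term is named in the methods of the study. Carriers and gene lists were chosen with earlier results of these data known. Carriers named in full were the 3 with the smallest p in each comparison, the 4 most abundant in WT input by exon length, and the 4 highest and 4 lowest in WT TE, and the others were given by role. A single tested carrier counts in the totals and medians but is not reported here.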

Additional observations from a re-analysis of the deposited data

How the results depend on the processing

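Over 56 summaries and carrier values, 764 of 826 values under alternatives changed neither sign nor call or, for counts and medians, moved little. Direction changed in 14 carrier values, and the cause was not tested. Slc25a42 in RPF was −0.063 with the GC trend removed, without or with the replicate block, and −0.038 with GC and length removed in the blocked fit. Slc25a22 in WT baseline TE was 0.87 as reported and −0.20 without length correction. When each mouse was left out, ranges that crossed 0 were −0.0025 to 0.18 for Slc25a13 in input and, in RPF, −0.094 to 0.48 for Slc25a4, −0.046 to 0.34 for Slc25a21, −0.16 to 0.36 for Slc25a33, −0.013 to 0.30 for Slc25a45, −0.29 to 0.053 for Slc25a46 and −0.55 to 0.11 for Slc25a48.

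Genes of the whole table past the threshold in input numbered 0 as reported, 30 without a low-count filter, 1 by DESeq2, 2 by limma, 2 with the replicate block and 0 to 21 when each mouse was left out, most without KO mouse 2, and no carrier passed in any of these. In RPF they numbered 44 as reported, 236 with the replicate block, 293 with a shared litter term, 12 with the GC trend removed, 23 from RPF columns alone and 0 to 228 when each mouse was left out, 0 without KO mouse 2 and 228 without KO mouse 1. Carriers past the threshold in RPF were 1 under either litter block (Slc25a47) and 0 to 1 when each mouse was left out (Slc25a23), and the pairing changed no other carrier call. In TE they numbered 0 as reported, 1 with the replicate block, 1 with GC removed as well, 1 with GC and length removed as well, and 9 with blocks of mouse and litter, and no carrier passed.

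The carriers' median difference was −0.017 to 0.10 in input and −0.047 to 0.12 in TE when each mouse was left out. Their median RPF difference of 0.15 was 0.044 at a minimum mean of 50, 0.057 with the GC trend removed, 0.057 when blocked as well, 0.084 with GC and length removed in the blocked fit, and −0.046 to 0.20 when each mouse was left out. Their median WT TE of 0.068 was −0.13 without length correction, −0.13 with the GC trend removed, 0.31 at a minimum mean of 50 and −0.055 to 0.13 when each WT mouse was left out. At that minimum, where fewer genes were tested, 16 carriers and 3830 genes differed from the median gene in WT TE, against 27 and 6101. Depth limits the rarer carriers most, as Slc25a40 had as few as 3 input reads.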
